A study of Mus musculus with 85 samples.

Results

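The proteasome degrades proteins tagged with ubiquitin. Its core particle is a barrel of alpha subunits (Psma genes) and beta subunits (Psmb genes), with the proteolytic sites on 3 of the beta subunits, encoded by Psmb5, Psmb6 and Psmb7. The regulatory particle caps the barrel: a base with a ring of ATPases (Psmc genes) unfolds the substrate and feeds it in, and a lid (Psmd genes) removes the ubiquitin chain. In early embryos the proteasome is known for clearing proteins that the egg laid down. Messenger RNAs stored in the egg are also lost in this period, while the embryo's own genome is switched on in the 2-cell stage. Proteasome genes were taken as all named entries of the expression table whose symbol is Psm, a letter from a to g, a number and at most 1 further letter, without pseudogenes. This gave 49 of 37368 genes: 19 of the core particle (Psma1 to Psma8, Psmb1 to Psmb11), 20 of the regulatory particle (Psmc1 to Psmc6, Psmd1 to Psmd14) and 10 others, namely the activators Psme1, Psme2, Psme2b, Psme3 and Psme4, the inhibitor Psmf1 and the core assembly chaperones Psmg1 to Psmg4.

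RNA was measured with Smart-seq2, a method that copies and amplifies full-length polyadenylated transcripts, in 85 libraries of wild type B6C3F1/J mouse embryos. KSOM, the standard medium, held 5 mM lactate, 0.2 mM pyruvate and 0.2 mM glucose, and ages are hours after hCG, the hormone given to time ovulation. In it, libraries came from early (34 h, n = 3), mid (42 h, n = 4), late (48 h, n = 3) and very late (52 h, n = 3) 2-cell embryos, early (55 h, n = 4) and late (62 h, n = 4) 4-cell embryos, and early (66 h, n = 3) and late (74 h, n = 2) 8-cell embryos. Older groups in it were morula (78 h, n = 6), early 16-cell (80 h, n = 5), early 32-cell (90 h, n = 4) and blastocyst (114 h, n = 4). Without pyruvate there were 2-cell embryos at 42 h (n = 4), 48 h (n = 5), 52 h (n = 4) and 55 h (n = 4), morulae at 78 h (n = 5) and blastocysts at 114 h (n = 5). Without lactate there were morulae (78 h, n = 5) and blastocysts (114 h, n = 4), and a further group of morulae (78 h, n = 4) lacked pyruvate and received KY-PYR-9 at 20 nM, named a myc inhibitor in the labels. At 55 h the embryos without pyruvate were still labelled 2-cell and were set against early 4-cell embryos. How many embryos or cultures made up a library was not given; the p-values cover no more than the scatter among libraries, which may be technical.

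Libraries held an estimated 10.2 to 42.6 M reads. Summed markers of the egg (5 genes, 10569 to 12600.1 CPM at early 2-cell against 0.0353 to 0.526 in blastocysts) and of trophectoderm (5 genes, 34.1 to 39.5 against 15199.9 to 20735 CPM), the outer cells of the blastocyst, followed the labelled stages. The 2-cell list (5 genes) did not mark that stage alone, with means of 54.3 CPM at early 2-cell and 1397 at early 8-cell. Markers of cumulus and granulosa cells (8 genes) summed to at most 23.7 CPM, those of sperm (5) to at most 3.90 and those of blood (4 measured of 6 listed) to at most 88.5 CPM. Standard morula libraries 1 and 2 stood apart from the other 4 in several proteasome genes, and results that rest on them are given with and without them. Pyruvate-free morulae were uneven too. Their trophectoderm markers summed to 254, 314, 259, 1087 and 869 CPM (libraries 1 to 5), and no fit left out the last 2 together. The columns of the 4 standard blastocyst libraries carry the tag PVA, which no other column used here has and which the labels do not explain, so what it marks cannot be told apart from the group.

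Proteasome genes took a small share of all values in 2-cell embryos and a larger one in 8-cell and early 32-cell embryos. The 49 genes together took 0.223, 0.251 and 0.250% of all values in the early 2-cell libraries and 0.182, 0.187, 0.196 and 0.195% in the mid 2-cell libraries. They took 0.495, 0.460 and 0.463% in the late 2-cell, 1.21, 1.30 and 1.34% in the early 8-cell and 1.91, 2.03, 2.00 and 1.99% in the early 32-cell libraries. Blastocysts were lower again, at 1.41, 1.40, 1.28 and 1.14%. No library of these groups overlapped with the group before it in this order. Embryos without pyruvate stayed low for longer: their share was 0.221 ± 0.0253% at 42 h, 0.263 ± 0.0180% at 48 h, 0.312 ± 0.00915% at 52 h and 0.613 ± 0.0967% at 55 h (mean ± SD), where standard embryos had 0.687 ± 0.0204% at 52 h and 1.05 ± 0.0718% at 55 h. In bulk libraries, fewer cells of a type and less RNA per cell cannot be told apart.

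**Figure D1:**
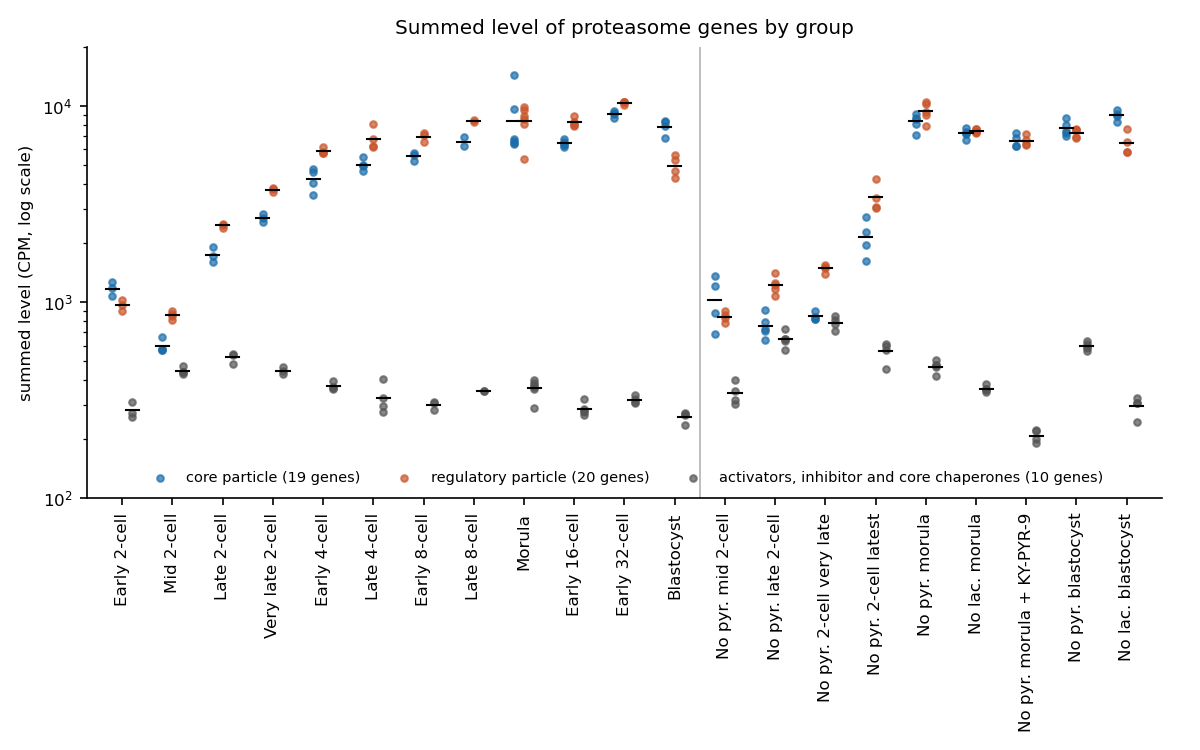
Summed level (CPM, log scale) of core, regulatory and other proteasome genes in every library (points) with the group mean (bar). Core and regulatory sums are near 1170.4 and 963 CPM at early 2-cell and near 9099 and 10416 CPM at early 32-cell, while the other 10 genes have standard group means between 260.3 and 522 CPM.

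The subunits that share 1 complex did not start from a common level. Per kilobase of transcript, the highest of the 14 constitutive core genes (Psma1 to Psma7, Psmb1 to Psmb7) exceeded the lowest 150.1-fold in early 2-cell embryos (Psmb2 at 340.1 and Psmb5 at 2.27 CPM per kb). This ratio was 12.8 at late 2-cell, 8.503 at very late 2-cell and 14.9 at early 32-cell. Among the 17 constitutive regulatory genes (Psmc1 to Psmc6 and the 11 Psmd genes other than the assembly chaperones) the lid subunit Psmd13 was lowest at early 2-cell, at 0.0747, 0.335 and 0.0602 CPM, a few reads per library, so no ratio is given there; it was 48.0 at mid and 10.4 at late 2-cell. Without pyruvate at 42 h the core ratio was 284 (Psmb2 over Psmb5), where standard embryos of that age had 23.9 (Psmb6 over Psma5). Psmb5 was at 1.42 CPM per kb without pyruvate, a level with a large counting error, so the 284 is imprecise. Within each particle the levels were closer together at 52 h than at 34 h in standard medium. Later the regulatory ratio was 21.7 at early 32-cell and 34.5 in blastocysts, with Psmd3 lowest and Psmc4 highest.

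**Figure D2:**
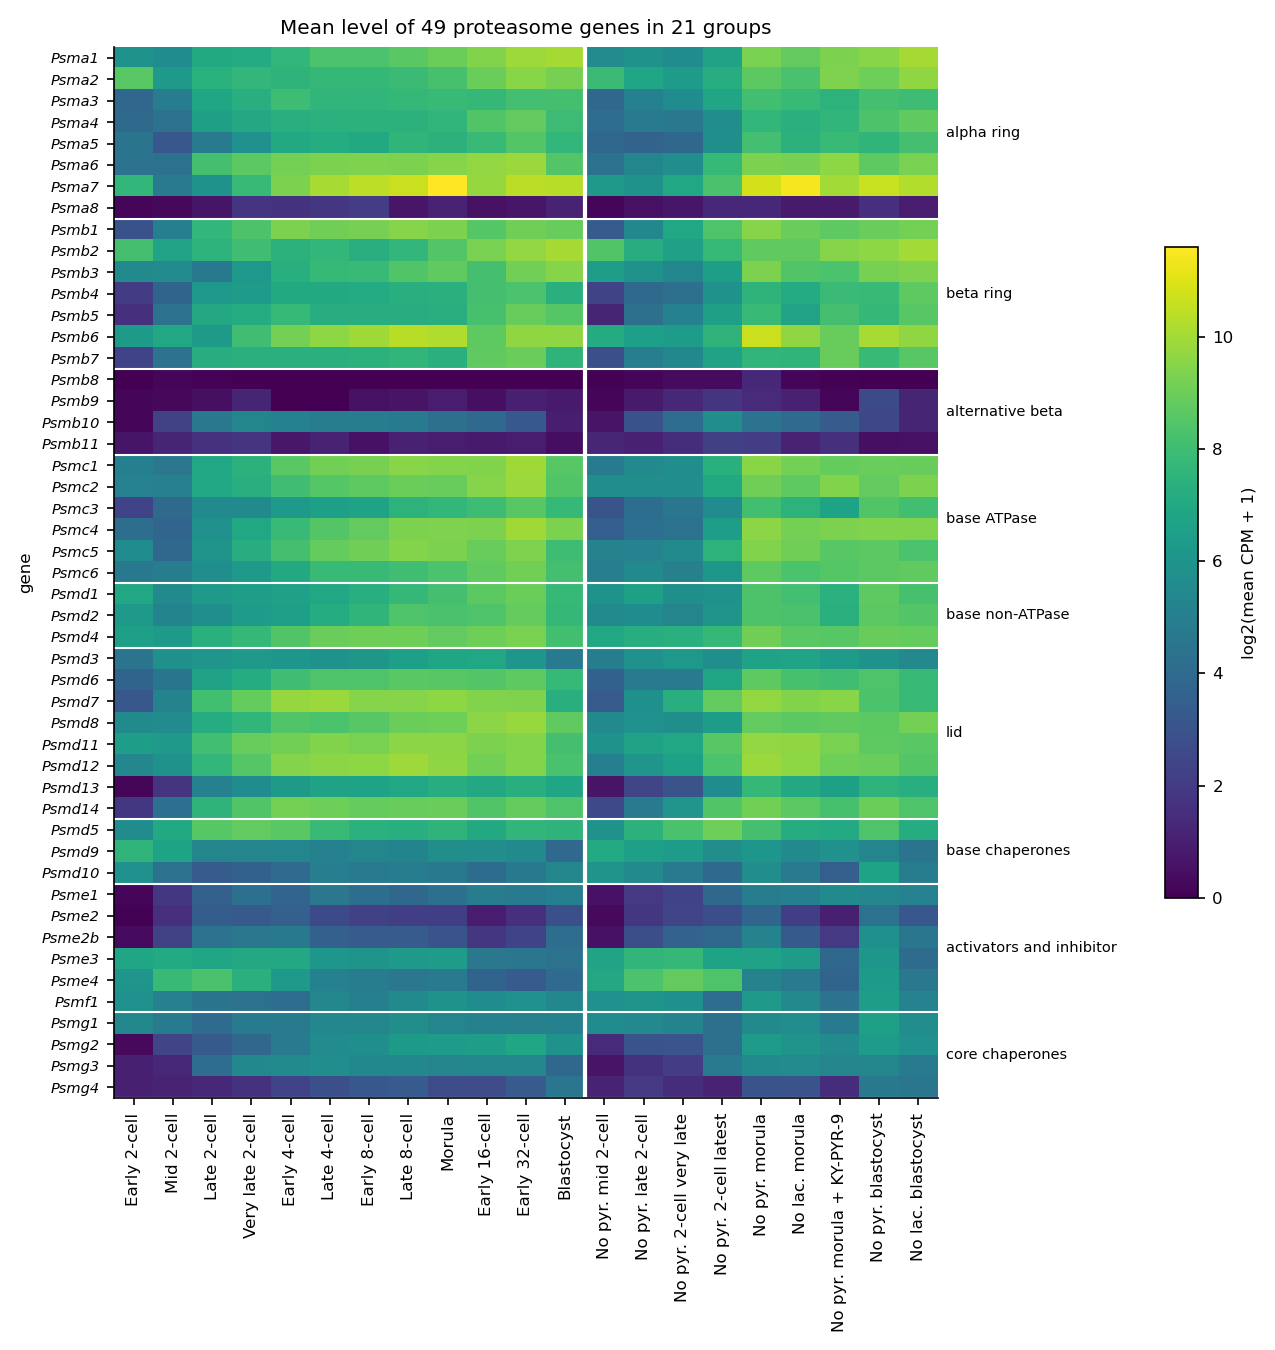
Mean level (log2 of mean CPM + 1, colour) of the 49 proteasome genes (rows, by class) in the 21 groups (columns, standard medium left of the white line). Early 2-cell embryos show a few genes at high level (Psma2, 401 CPM) beside many near 0 (Psmb5, 2.04 CPM), whereas at early 32-cell most core and regulatory rows are high.

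Between the early and the late 2-cell stage subunits moved both ways. Of 48 members tested, 31 were higher and 9 lower in late than in early 2-cell embryos, where 57.7% of all genes tested were higher and 13.7% lower. The split was 23 and 17 with median-ratio scaling (7322 and 6863 of 20363 genes) and 25 and 16 with quantile scaling (6443 and 7125 of 20400 genes). The members' median log2 change was 1.69, against 0.85 for all genes, but 0.25 against 0.06 with median-ratio scaling and 0.67 against -0.01 with quantile scaling. Over the 16 comparisons median-ratio scaling shifted the median log2 change of all genes tested by -1.05 to 0.71. The members' median could move by more, as from 0.06 to 1.27 for blastocysts against early 8-cell embryos. All 8 lid genes rose (5 with median-ratio scaling, 7 with quantile scaling), none falling under either. Of 6 ATPase genes 5 rose and 0 fell, but 3 and 2 under both of those scalings; of 7 beta ring genes 4 rose and 2 fell, and of 8 alpha ring genes 4 and 2, but 3 and 4 with median-ratio scaling. The call of 23 of the 31 rises and of 9 of the 9 falls held under each of 7 other ways of processing the same libraries.

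The rises with the most change were in Psmd14, Psmb5 and Psmd7. Psmd14, the lid enzyme that cuts the ubiquitin chain off, had 2.46, 3.01 and 2.51 CPM in the early, 13.9, 17.9, 16.2 and 22.7 in the mid and 202, 182 and 175 in the late 2-cell libraries. These 3 groups did not overlap, and the log2 change from early to late was 5.68 ± 0.16, adjusted p = 1.44e-29. Psmb5, the chymotrypsin-like protease, had 2.25, 1.68 and 2.18 CPM at early and 124, 134 and 121 at late 2-cell (5.39 ± 0.19, adjusted p = 3.83e-26). Psmd7, the lid partner of Psmd14, went from 7.31, 6.82 and 9.38 to 280.1, 284 and 258 CPM (4.97 ± 0.18, adjusted p = 1.42e-25). In each of these genes every late library lay above every early one. Psmb7, the trypsin-like protease, rose by 4.91 on the log2 scale, whereas Psmb6, the caspase-like one, had 65.5, 91.4 and 80.1 CPM at early and 89.9, 74.7 and 69.0 at late 2-cell, with overlapping groups and a log2 change of -0.02 that did not pass the test.

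A set of subunits was higher at early 2-cell than at mid or late 2-cell. Psma7, an alpha ring subunit, had 214, 168 and 228 CPM at early, 24.5, 23.6, 31.9 and 22.4 at mid and 60.9, 59.2 and 62.9 at late 2-cell. Its fall was already present at 42 h (-2.94 ± 0.31, adjusted p = 9.62e-11), and at very late 2-cell it was back at 243, 244 and 215 CPM. Psma2, also of the alpha ring, fell from 353, 397 and 452 to 67.8, 74.2, 100.1 and 69.3 CPM between 34 and 42 h (-2.36 ± 0.16, adjusted p = 2.71e-16). Base assembly chaperones fell as well: Psmd10 by 2.53 and Psmd9 by 2.29 on the log2 scale from early to late 2-cell, while Psmd5, the third of them, rose by 2.92. The egg markers, of which 4 of 5 fell and 1 rose, summed to 10569 to 12600.1 CPM in early and 982 to 1192 CPM in late 2-cell libraries, and their part in these falls was not tested. From early to mid 2-cell, 20 members rose and 11 fell (43.0% and 7.71% of all genes). With median-ratio scaling it was 16 and 21 (6171 and 3908 of 20363 genes) and with quantile scaling 16 and 24 (4268 and 5487 of 20400 genes). Once a trend with transcript length was removed it was 17 and 19 (4714 and 4031 of 20160 genes).

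Promoter sequence is shown for the pair with the largest rises, Psmd14 and Psmb5, for Psmb6, the protease subunit that did not rise in that interval, and for Psme4, the activator described below. RefSeq windows of 300 bases (250 before and 50 after the start site, GRCm38.p6) were found for 41 of the 49 genes; 2 motifs were searched on both strands, TGANNNNGC, the core of the antioxidant response element that NFE2L1 and NFE2L2 bind, and CCAAT, which NF-Y binds. The 150 bases before the start site follow, with matches to TGANNNNGC that lie wholly inside them in capitals.
Psmd14, chr2:61711544-61711693, plus strand: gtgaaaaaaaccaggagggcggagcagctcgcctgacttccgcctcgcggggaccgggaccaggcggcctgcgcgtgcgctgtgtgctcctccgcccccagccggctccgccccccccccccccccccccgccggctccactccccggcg
Psmb5, chr14:54617996-54618145, minus strand: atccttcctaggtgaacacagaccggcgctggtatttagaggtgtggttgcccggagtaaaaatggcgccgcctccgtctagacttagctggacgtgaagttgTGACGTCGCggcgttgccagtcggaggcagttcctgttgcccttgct
Psmb6, chr11:70525207-70525356, plus strand: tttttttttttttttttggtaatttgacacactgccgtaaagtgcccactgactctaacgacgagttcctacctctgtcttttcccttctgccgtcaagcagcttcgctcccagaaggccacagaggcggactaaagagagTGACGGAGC
Psme4, chr11:30771625-30771774, plus strand: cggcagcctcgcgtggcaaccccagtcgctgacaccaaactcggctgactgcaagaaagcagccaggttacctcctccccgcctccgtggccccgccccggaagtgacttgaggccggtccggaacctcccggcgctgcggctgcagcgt
Psmb5 has TGACGTCGC 47 bases and Psmb6 has TGACGGAGC 9 bases before the start site, while the stretch of Psmd14 holds none. In Psme4 TGACGCTGC lies on the opposite strand and runs from 7 bases before the start site past it, so it is not wholly within the stretch shown. Over the whole window, TGANNNNGC was found in 56.1% of the 41 genes (73.3% of 15 core and 47.1% of 17 regulatory genes) and in 41.3% of 32851 promoters of the same length. CCAAT was found in 34.1% of the 41 genes and in 37.4% of all promoters. Of the genes with a window, TGANNNNGC was present in 52.0% of 25 that rose and 62.5% of 8 that fell from early to late 2-cell. A gene counted if any of its windows matched (44 windows for the 41 genes), while all promoters were counted by window. Matches are of letters only.

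From the late 2-cell to the early 8-cell stage subunits of both particles rose. There were 33 members higher and 6 lower, against 24.5% and 47.9% of all genes, and their median log2 change was 1.28 where that of all genes was -0.46. All 6 ATPase genes rose (1.16 to 3.08), as did all 3 non-ATPase base genes and all 4 core chaperones, also under median-ratio and quantile scaling and with the length trend removed. Of 8 lid genes 7 rose, of 8 alpha ring genes 7, and of 7 beta ring genes 4. The core minus regulatory difference of median changes was -0.62, and -0.73 and -0.62 with quantile scaling and the length trend removed. Median-ratio scaling changes every gene of a library by the same factor. That factor nearly cancels in this difference, so its value (-0.62) is no separate check. Of the 33 rises, 32 held under all 7 other ways of processing. The rises with the most change were in Psma7, Psmb6 and Psmb3. Psma7 went from 60.9, 59.2 and 62.9 to 1343, 1388 and 1399.6 CPM (4.47 ± 0.33, adjusted p = 2.53e-15). Psmb6 had 89.9, 74.7 and 69.0 and then 956, 1020.0 and 981 CPM (3.65 ± 0.20, adjusted p = 2.03e-19), and Psmb3, another beta ring subunit, changed by 3.17. Among the ATPases, Psmc5 changed by 3.08 and Psmc4 by 2.95. Psmb5, Psmb7 and Psmb2 did not pass the test, with log2 changes of 0.22, 0.24 and -0.17. Reads of Psmb6 could be shared with its copy Psmb6-ps2, whose highest group mean was 145 CPM, in pyruvate-free morulae.

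The balance between the particles differed between early 32-cell embryos and blastocysts. Summed core CPM divided by summed regulatory CPM was 1.200, 1.15 and 1.30 in early 2-cell libraries and 0.699, 0.680, 0.759 and 0.630 in mid 2-cell libraries. It then stayed between 0.609 and 0.839 in every library up to late 8-cell. Early 32-cell libraries had 0.851, 0.900, 0.872 and 0.871 and blastocysts 1.48, 1.58, 1.68 and 1.59, with no overlap. The ratio is formed within a library, so a scaling factor cannot alter it. A few abundant genes weigh heavily in sums. So the mean log2(CPM + 1) of the 14 constitutive core genes minus that of the 17 regulatory genes was also taken. It was 0.175, 0.200, 0.164 and 0.0609 at mid 2-cell, -0.192, -0.162 and -0.159 at early 8-cell and -0.400 and -0.122 at late 8-cell. At early 32-cell it was 0.146, 0.291, 0.212 and 0.184, and in blastocysts 0.861, 0.730, 0.943 and 1.05. From late 2-cell to early 8-cell the measures moved in opposite directions. The group mean of the sum ratio went from 0.708 to 0.795, and that of the log2 difference from 0.0294 to -0.171. Among the 15 core genes that reached 10 CPM, 7 had their highest standard group mean at early 32-cell and 4 in blastocysts, whereas of 20 regulatory genes 11 were highest at early 32-cell and 0 in blastocysts. In 6 standard morula libraries the sum ratio had a lowest of 0.688, a median of 0.738 and a highest of 2.700; the highest value is library 1, where Psma7 alone had 9269.8 CPM.

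**Figure D3:**
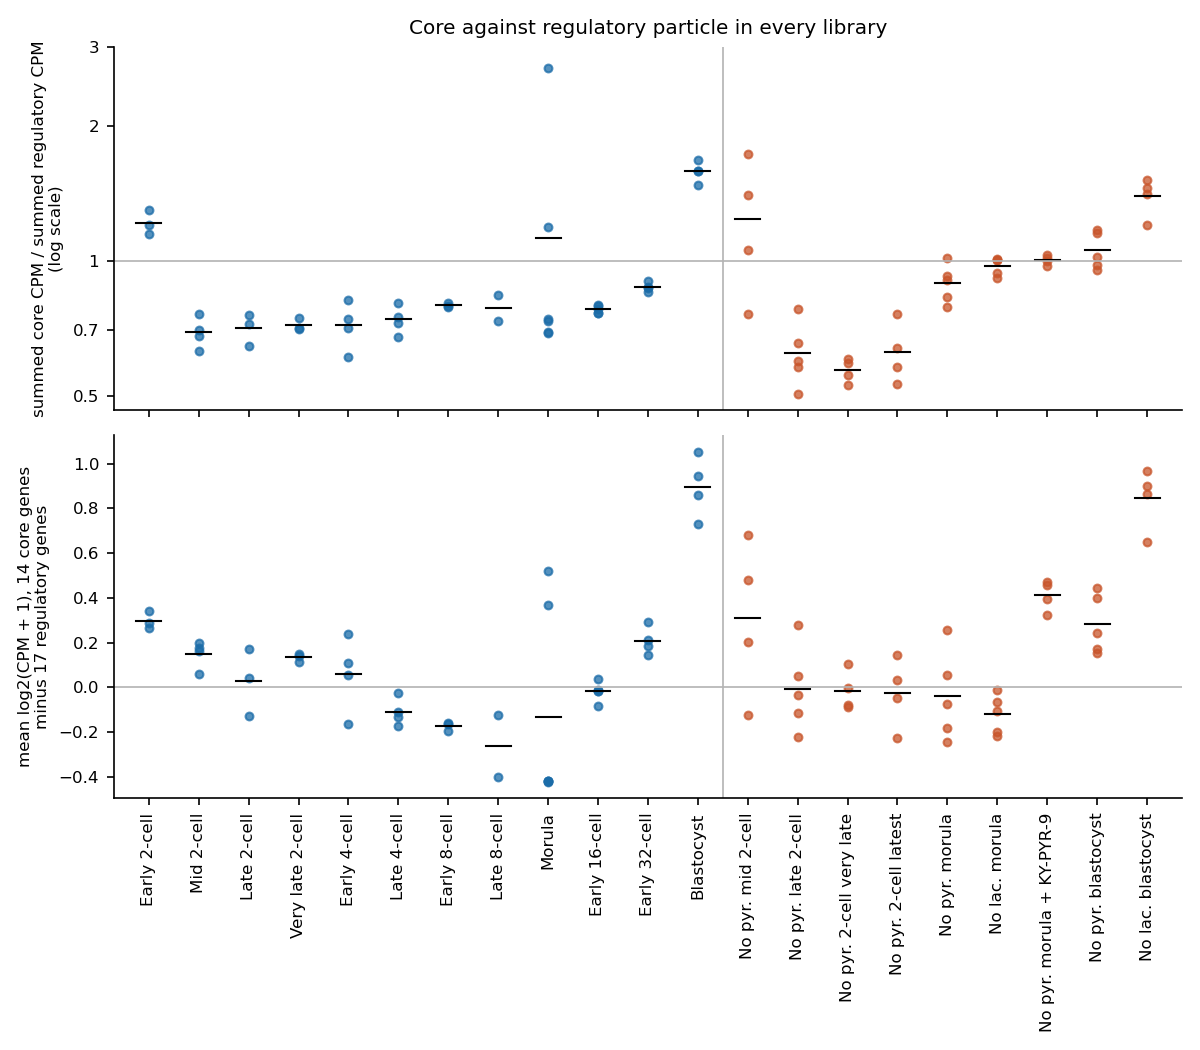
Core against regulatory particle in every library (points; bar, group mean): ratio of summed CPM (top, log axis) and difference of mean log2(CPM + 1) of 14 core and 17 regulatory genes (bottom). Standard groups are blue and changed media orange; the 4 standard blastocysts lie between 1.48 and 1.68 in the ratio and the 5 without pyruvate between 0.953 and 1.17.

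Regulatory genes fell, while the direction of the core genes depended on the scaling. In blastocysts against early 32-cell embryos, 1 of 20 regulatory genes rose (Psmd10) and 17 fell, with a median log2 change of -1.15. Of 18 core genes tested, 0 rose and 6 fell, with a median of -0.27; with median-ratio scaling 7 core genes rose and 3 fell, and 1 regulatory gene rose and 12 fell. Over all members 5 rose and 25 fell (12.6% and 29.1% of all genes, median -0.14). With median-ratio scaling this was 14 and 16 (5037 and 3550 of 20363 genes). The difference between the median changes of the 14 core and the 17 regulatory genes was 0.93 on the log2 scale. It was 0.68 with quantile scaling and 0.93 with the length trend removed. The value with median-ratio scaling (0.93) is no separate check, since the factor for a library nearly cancels between the particles. All 6 ATPase genes fell (4 with median-ratio scaling), as did 7 of 8 lid genes (5) and 3 of 3 non-ATPase base genes (2), and 12 of the 17 regulatory falls held under every other processing. Psmd7 had 622, 631, 662 and 676 CPM at early 32-cell and 157, 198, 154 and 135 in blastocysts (-2.01 ± 0.16, adjusted p = 4.78e-14). The ATPase Psmc2 had 872, 1039, 982 and 874 CPM at early 32-cell and 394, 289, 307 and 395 in blastocysts (-1.45 ± 0.14, adjusted p = 3.02e-11). Both genes were lower in every blastocyst library. Among called members at 10 CPM or more, Psme2b, Psmg4 and Psmd10 had the largest rises. Psmd7, Psmd9 and Psmg3 had the largest falls. Of the core genes, Psma1 had 896, 959, 948 and 988 CPM at early 32-cell and 1068, 959.5, 1285 and 891 in blastocysts. Psmb2 had 829.4, 917, 848 and 826 at early 32-cell and 1217, 1013, 1048 and 924 in blastocysts, and neither passed the test. The core was not uniform: Psma6 (-1.37) and Psmb7 (-1.47) fell under every processing. Trophectoderm markers summed to 918 to 1403 CPM at early 32-cell and 15199.9 to 20735 in blastocysts, and the 100 most abundant genes took 34.2 to 36.1% and 40.0 to 44.2% of values; their part in the shift was not tested.

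Against early 8-cell embryos, blastocysts had 15 members higher and 16 lower (17.1% and 44.0% of all genes). It was 35 and 3 with median-ratio scaling (6996 and 5558 of 20363 genes) and 23 and 12 with quantile scaling (6204 and 6694 of 20400 genes). With the length trend removed it was 27 and 11 (7895 and 6076 of 20160 genes). Core genes that rose under every processing were Psma1 to Psma5, Psmb2, Psmb3 and Psmb5, while 2 regulatory genes did, Psmc3 and Psmd1. Psmb2 had 117, 171 and 192 CPM at early 8-cell and 1217, 1013, 1048 and 924 in blastocysts (2.73 ± 0.22, adjusted p = 2.38e-14). Psmd7 (-2.19), Psme3 (-1.73) and Psmb10 (-3.88) fell under every processing. The core minus regulatory difference of median changes was 0.95, and 0.93 with the length trend removed.

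Alternative beta subunits, which replace the constitutive proteases in immune and thymus cells, were nearly absent except for Psmb10. Psmb8 stayed at group means of at most 1.54 CPM, Psmb9 at most 5.06, the thymus subunit Psmb11 at most 3.54 and the germ-line alpha subunit Psma8 at most 3.27. Psmb10, which takes the place of Psmb7, had 0, 0.268 and 0.180 CPM at early 2-cell and 51.6, 35.3 and 31.3 at very late 2-cell. It was at 9.22, 7.20, 6.79 and 9.42 at early 32-cell and 1.03, 1.197, 0.669 and 1.01 in blastocysts, a log2 change of -2.21 ± 0.21, adjusted p = 7.26e-12. Constitutive Psmb7 had 162 ± 8.76 and 487 ± 47.8 CPM at very late 2-cell and early 32-cell. Of the 4 genes listed as inducers of the alternative subunits, Ifng had group means of at most 0.460 CPM, and Irf1 had 18.5 ± 4.02 CPM at mid 2-cell and 0.360 ± 0.153 at early 32-cell.

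Among the activators, Psme4, a large nuclear activator linked to histone breakdown, had 52.4, 83.4 and 59.0 CPM at early, 285, 299 and 335 at late and 160.2, 159.6 and 177 at very late 2-cell. By early 8-cell it was at 30.8, 28.6 and 25.5 (-3.39 ± 0.23, adjusted p = 1.47e-16), the one fall of 6 in that interval that held under every processing. Psme3, the other nuclear activator, had 112 ± 4.61 CPM at early 2-cell, 64.1 ± 17.6 at early 8-cell and 19.03 ± 6.05 in blastocysts. Psme1 and Psme2, the interferon-responsive pair, rose between early and late 2-cell (3.40 and 3.33) but had group means of at most 44.1 and 19.2 CPM. Psme2 and Psme2b are near-identical copies whose reads may be split between them. The inhibitor Psmf1 and the core chaperone Psmg1 fell from early to late 2-cell (-1.42 and -1.33), while the chaperones Psmg2 (2.98) and Psmg3 (3.12) rose.

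**Figure D4:**
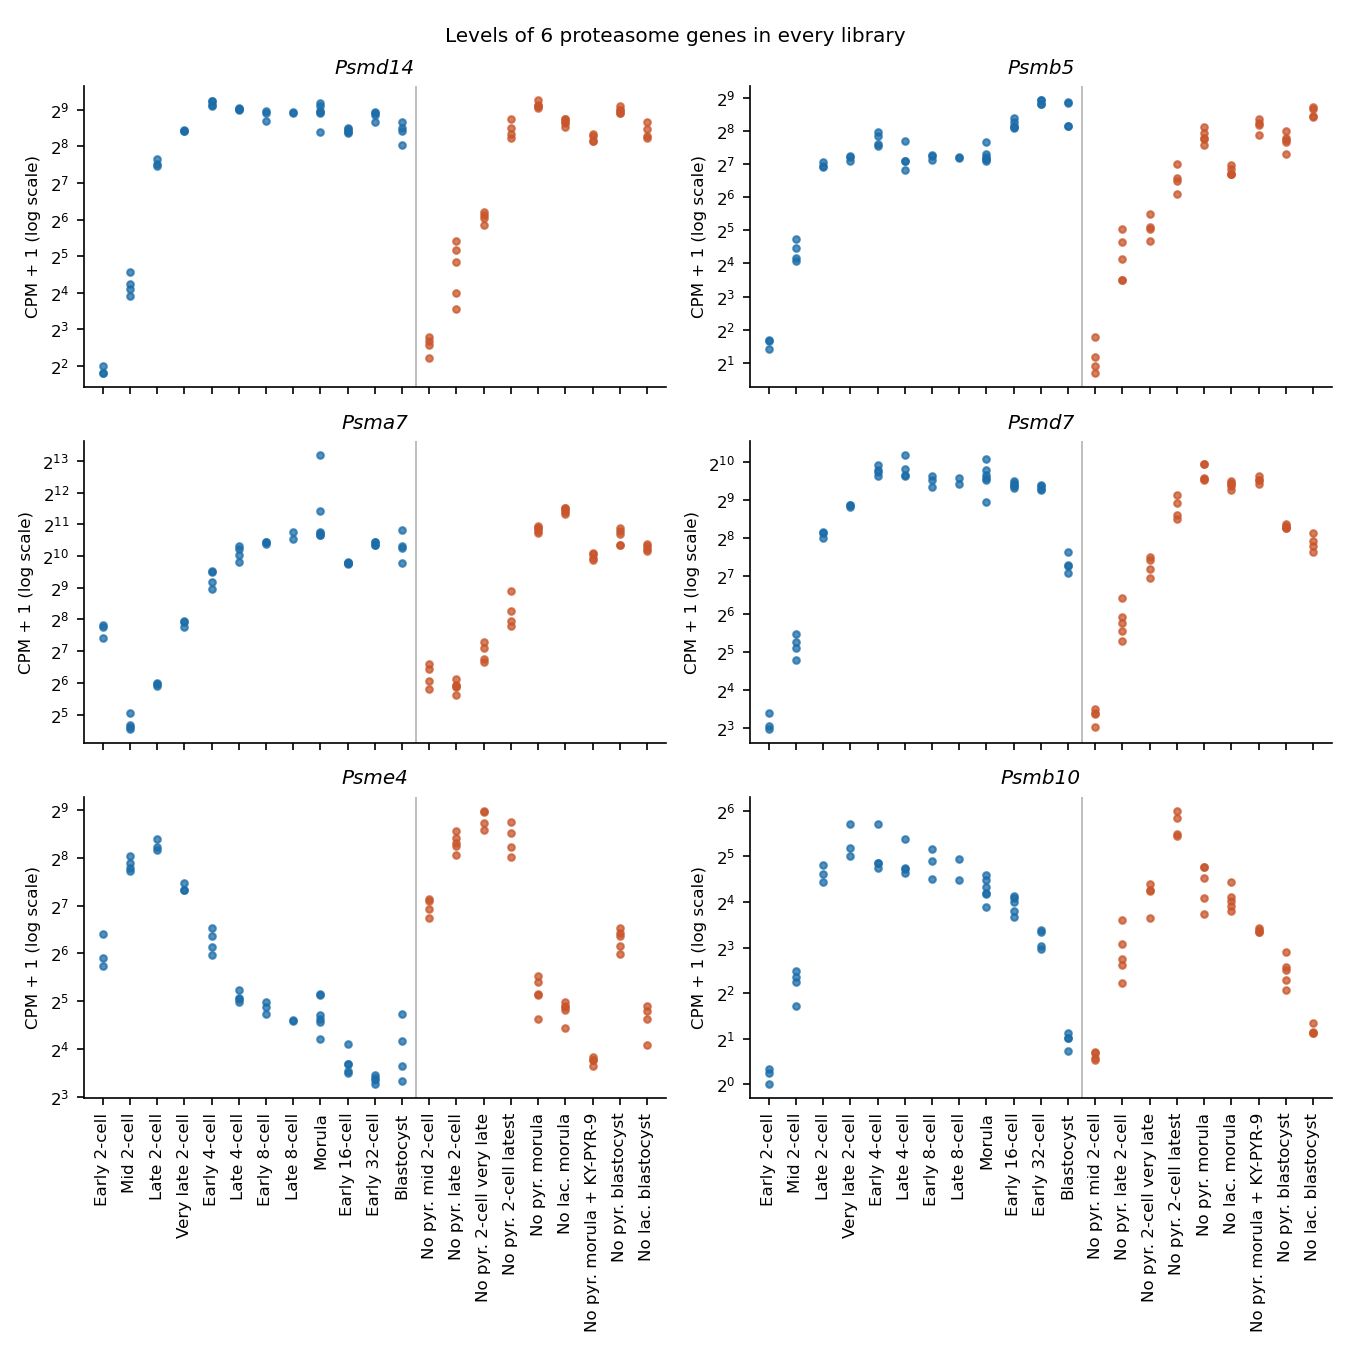
Level of 6 proteasome genes (CPM + 1, log scale) in every library (points) of the 21 groups, standard medium in blue and changed media in orange. Psmd14, Psmb5 and Psmd7 climb through the 2-cell stage, later in embryos without pyruvate, while Psme4 peaks at late 2-cell (306 CPM) or, without pyruvate, at 52 h (452 CPM).

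Without pyruvate most proteasome subunits were below their standard level from 48 to 55 h, and at 42 h the subunits moved both ways. At 42 h, 11 members were higher and 20 lower than in standard embryos (5.58% and 31.2% of all genes). It was 18 and 18 under median-ratio scaling (3495 and 4387 of 20221 genes) and 17 and 15 under quantile scaling (4250 and 4018 of 20844 genes). At 48 h, 7 were higher and 28 lower (22.6% and 34.3% of all genes). At 52 h it was 6 and 38 of 48 (31.9% and 31.3%), and at 55 h, against early 4-cell embryos, 5 and 34 (37.7% and 19.5%). The members' median log2 change was -1.12, -1.38 and -0.74 at 48, 52 and 55 h, where that of all genes was -0.14, 0.08 and 0.27. Under the other ways of processing the falls lay between 27 and 29, 37 and 38, and 30 and 37 at these ages. The 42 h and 48 h groups in standard medium also enter the stage comparisons above, so these are not independent.

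At 52 h the fall covered both particles. All 8 alpha ring, all 7 beta ring and all 6 ATPase genes were lower, with median log2 changes of -1.58, -1.70 and -1.66, as were 7 of 8 lid genes (-1.95). The core minus regulatory difference of median changes was 0.02. Psma6, an alpha ring subunit, had 421, 388 and 405 CPM in standard and 47.0, 42.3, 54.0 and 58.5 in pyruvate-free embryos (-2.99 ± 0.22, adjusted p = 2.34e-13). Psmd13, a lid subunit, had 51.8, 52.8 and 41.5 CPM in standard and 5.04, 6.42, 4.78 and 11.3 in pyruvate-free embryos (-2.72 ± 0.25, adjusted p = 3.87e-11). The chaperone Psmg3 changed by -3.41 ± 0.29, adjusted p = 6.99e-12. In all 3 genes the groups were apart. Psmd14 had 202, 182 and 175 CPM in standard and 41.5, 10.8, 14.9, 27.6 and 35.2 in pyruvate-free libraries at 48 h (-2.95 ± 0.24, adjusted p = 3.35e-12), and 345 against 65.8 CPM as means at 52 h (-2.38 ± 0.26, adjusted p = 8.99e-10). At 55 h its means were 579 CPM in early 4-cell embryos and 351 without pyruvate.

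In standard medium 11 members fell between 34 and 42 h. Of these, Psma2, Psma5, Psma7, Psmb2, Psmc5, Psmd10 and Psmf1 were higher without pyruvate at 42 h, and Psmd9, Psmd10 and Psmf1 at 48 h. Psmc1, Psmd1 and Psmd2 were higher at neither age, and Psma5, Psmc1 and Psmc5 were lower at 48 h. Psmd10 had 10.7, 7.78 and 9.28 CPM in standard and 36.0, 46.8, 50.6, 49.6 and 42.8 in pyruvate-free libraries at 48 h (2.17 ± 0.29, adjusted p = 8.67e-08). Psma2 was at 67.8, 74.2, 100.1 and 69.3 against 290.5, 351, 144 and 179.5 CPM at 42 h (1.55 ± 0.19, adjusted p = 2.92e-08), and Psmb2 changed by 1.69 ± 0.21, adjusted p = 2.07e-08. Psmf1, the inhibitor, was higher at 48 h (1.54) and 52 h (1.49). Psmb5, by contrast, had 16.9, 25.7, 15.8 and 20.95 CPM in standard and 0.598, 1.26, 2.40 and 0.864 in pyruvate-free libraries at 42 h (-3.23 ± 0.26, adjusted p = 8.84e-13). Psme4 was lower without pyruvate at 42 h under every processing, and higher at 52 and 55 h. At 52 h it had 160.2, 159.6 and 177 CPM in standard and 421, 384, 497 and 507 in pyruvate-free libraries (1.43 ± 0.17, limma adjusted p = 6.96e-09). Against early 4-cell embryos at 55 h it changed by 2.13 ± 0.16 (limma adjusted p = 2.01e-13). Egg markers summed to 982 to 1192 CPM in standard and 3296 to 5038 in pyruvate-free embryos at 48 h and to 439 to 585 and 1305 to 1691 at 52 h; their part in these differences was not tested.

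**Figure D5:**
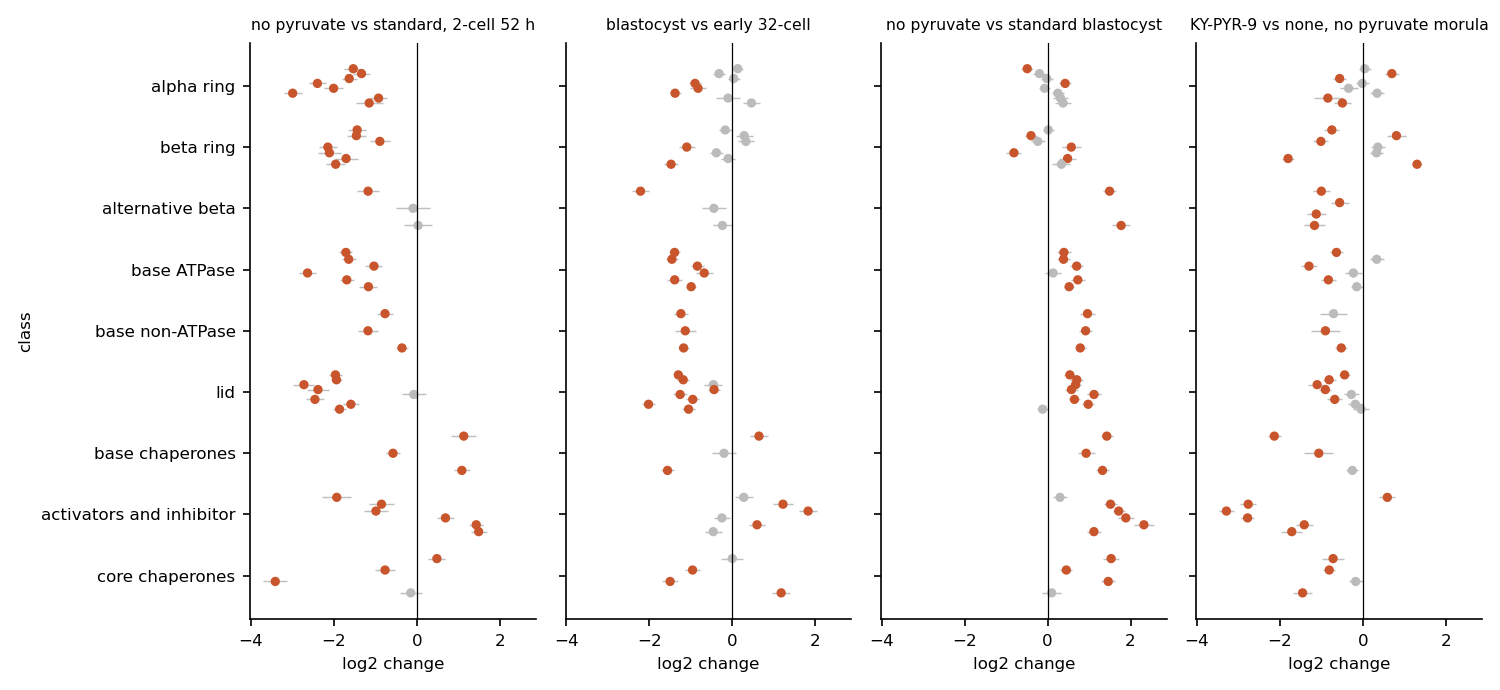
Log2 change (x axis; horizontal line, SE) of each tested proteasome gene (points, by class) in 4 comparisons; orange points passed the limma test at an adjusted p of 0.05 and grey points did not. At 52 h without pyruvate all alpha ring, beta ring and ATPase genes lie left of 0, whereas in blastocysts against early 32-cell embryos the regulatory classes lie left of most of the core genes.

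In morulae a few proteasome genes differed under every processing in each changed medium, and both media share the standard morulae. Without pyruvate, 15 of 49 members were higher and 0 lower (32.8% and 6.62% of all genes), with a median of 0.24 against 0.28 for all genes. With median-ratio scaling 7 and 1 were called (3506 and 1931 of 15949 genes), and with the length trend removed 5 and 6 (2904 and 2970 of 16032 genes). Psme2b (2.21 ± 0.16, adjusted p = 1.20e-09), Psme2 (1.62), Psmd10 (0.95) and Psmb11 (1.27) kept their rise under every processing. Psmb11 is a gene of low level, with at most 8.94 CPM in any library. Psme2b had 40.8, 36.7, 38.6, 36.4 and 27.7 CPM in pyruvate-free and a lowest of 5.83, a median of 7.12 and a highest of 7.82 in standard morulae. Without lactate, 1 member was higher and 3 were lower (8.38% and 3.42% of all genes): Psme1 rose (0.81 ± 0.17, adjusted p = 0.00357), and Psmb6 (-0.55), Psmb5 (-0.48) and Psmg2 (-0.43) fell, the last with an adjusted p of 0.088 in limma where the spread came from the groups compared only. With standard morula libraries 1 and 2 left out, 18 were higher and 1 lower without pyruvate, and 2 higher and 14 lower without lactate. Of 15872 genes tested there, 5148 were higher and 1391 lower without pyruvate, and 1857 and 1245 without lactate. The core minus regulatory difference went from 0.09 to 0.41 and from -0.02 to 0.28. Leaving out library 1 alone gave 13 calls without lactate, and leaving out lactate-free library 1 or 4 gave 2. Psmb5 did not pass without lactate-free library 1, 4 or 5 (adjusted p = 0.0591, 0.0569 and 0.0561 with limma), and Psmg2 did not without any of 7 libraries (adjusted p = 0.0547 to 0.0839).

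With the myc inhibitor some core subunits were higher and several activators lower. In pyruvate-free morulae with KY-PYR-9 against those without it, 4 members were higher and 30 lower (8.61% and 67.1% of all genes, median -0.68 against -0.90). It was 22 and 9 with median-ratio scaling (3713 and 4617 of 15949 genes) and 20 and 9 with the length trend removed (3583 and 3864 of 16032 genes). Psmb7, Psmb2, Psma2 and Psme1 rose under every processing. Psmb7 had 181, 204, 239.8, 171 and 181 CPM without and 456, 524, 417 and 534 with the inhibitor (1.30 ± 0.13, adjusted p = 2.01e-08), and the groups did not overlap. The protease subunit Psmb6 had 1487, 1689, 1831, 1569.5 and 1676 CPM without and 441, 442, 459 and 550.2 with the inhibitor (-1.80 ± 0.14, adjusted p = 6.57e-10). Its copy Psmb6-ps2, with which reads could be shared, had its highest group mean, 145 CPM, in the group without the inhibitor. Among the activators, Psme3 had 97.9, 89.7, 91.8, 123 and 109 CPM without and 12.4, 14.6, 17.3 and 12.04 with the inhibitor (-2.78 ± 0.15, adjusted p = 8.64e-12), Psme2b changed by -3.29 and Psme2 by -2.76. Psmd10 (-2.14) and Psmf1 (-1.71) also fell under every processing. The core minus regulatory difference of median changes was 0.65, and 0.60 and 0.59 with quantile scaling and the length trend removed. Median-ratio scaling gave 0.65, but its factor for a library nearly cancels in this difference. Per library, the mean log2 difference of core and regulatory genes was -0.0732, 0.0546, 0.257, -0.243 and -0.182 without and 0.397, 0.471, 0.323 and 0.457 with the inhibitor, with no overlap, while the ratio of summed CPM overlapped (0.904, 0.926, 1.01, 0.789 and 0.831 without and 0.999, 1.03, 0.972 and 1.02 with it). Trophectoderm markers summed to 254, 314, 259, 1087 and 869 CPM without and 49.2 to 75.6 with it. The 5 listed 2-cell markers summed to 1103, 1085, 1387, 642 and 461 without and 1889 to 2119 with it. This list does not mark the 2-cell stage alone, with means of 54.3 CPM at early 2-cell, 1397 at early 8-cell and 1008 in standard morulae. In standard morulae 1 of the 5 genes averaged above 1 CPM, against 5 in both groups compared here. Pyruvate-free libraries 4 and 5 differed from the others in both lists, and the part of these markers was not tested. This comparison shares the pyruvate-free morulae with the one above. No group with both pyruvate and the inhibitor was analysed here.

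Without pyruvate the core particle outweighed the regulatory particle less in blastocysts. The sum ratio was 1.15, 0.979, 0.953, 1.02 and 1.17 without pyruvate, below every standard blastocyst, and 1.41, 1.45, 1.52 and 1.203 without lactate, where it overlapped the standard range. Of the regulatory genes 18 were higher and 0 lower without pyruvate, and of 17 core genes tested 5 and 3. Over all 47 members tested it was 31 and 3 (80.8% and 7.14% of all genes, median 0.57 against 1.15). But it was 5 and 32 with median-ratio scaling (4142 and 3905 of 13765 genes) and 9 and 20 with the length trend removed (3589 and 3642 of 14313 genes). So 0 of the regulatory rises held under every processing. The core minus regulatory difference of median changes was -0.68, and kept its sign with quantile scaling (-0.49) and the length trend removed (-0.45). Median-ratio scaling gave -0.68, but its factor for a library nearly cancels in this difference, so it is no separate check. The 100 most abundant genes took 40.0 to 44.2% of values in standard and 23.2 to 25.2% in pyruvate-free blastocysts, and trophectoderm markers summed to 15199.9 to 20735 and 8765 to 9534 CPM; their part was not tested.

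Psmb5 was lower and nuclear activators were higher in pyruvate-free blastocysts under every processing. Psmb5 had 464, 282, 468 and 285 CPM in standard and 221, 209.6, 204, 157 and 257 in pyruvate-free blastocysts (-0.81 ± 0.18, adjusted p = 4.03e-04). Psme4 had 17.05, 11.48, 9.08 and 25.6 CPM in standard and 62.6, 69.8, 81.5, 85.3 and 91.9 in pyruvate-free blastocysts (2.32 ± 0.23, adjusted p = 4.26e-08). Psme3 had 19.3, 24.0, 22.4 and 10.4 in standard and 57.3, 67.9, 75.7, 81.0 and 70.4 in pyruvate-free blastocysts (1.89 ± 0.20, adjusted p = 7.47e-08). In each of these genes the groups did not overlap. Psme2b (1.72), Psmb10 (1.495) and Psmb9 (1.77) were higher as well, the last at 5.06 against 0.789 CPM as means. Without lactate, 19 members were higher and 0 lower (14% and 9.29% of all genes). It was 10 and 0 where the spread was taken from these groups only (1407 and 979 of 12158 genes), and 10 or 12 in all without lactate-free library 2 or 3. The standard blastocysts are shared with the pyruvate comparison. Psmb4, a beta ring subunit, had 109, 114, 130.3 and 295 CPM in standard and 391, 499.8, 457 and 353 in lactate-free blastocysts (1.51 ± 0.24, adjusted p = 3.60e-04). The groups did not overlap, though standard library 4 lay well above the other 3. Psmb7 (1.11 ± 0.23, adjusted p = 0.00263), Psma4 (0.82), Psma6 (0.80), Psmc2 (0.87) and Psmd4 (0.74) kept their rise under every processing.

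The effect of a medium was also compared between stages. The change without pyruvate in blastocysts minus that in morulae was positive for 11 and negative for 7 of 49 members (44.1% and 11.3% of all genes). With median-ratio scaling it was 2 and 28 (2641 and 4132 of 16301 genes) and with quantile scaling 1 and 7 (3058 and 3038 of 16526 genes). With the length trend removed it was 6 and 11 (3269 and 3486 of 16480 genes). The difference held under every processing for Psme4 (1.89 ± 0.34, limma adjusted p = 1.02e-04), Psmb5 (-1.38 ± 0.26, limma adjusted p = 1.70e-04), Psma5 (-0.83) and Psmb11 (-1.26, at most 8.94 CPM in any library). For lactate it was positive for 6 and negative for 0 members (4.07% and 6.08% of all genes), among them Psmb4 (1.69 ± 0.33, adjusted p = 0.00249), Psma4 (1.08) and Psma6 (1.05). Without standard morula libraries 1 and 2 the counts were 22 and 7 for pyruvate (8121 and 1950 of 16294 genes) and 19 and 1 for lactate (1584 and 1600 of 15066 genes). Without library 1 alone 14 were called for lactate.

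Genes that work with the proteasome were listed apart from the subunits. Of 10 measured associated proteins, 7 rose and 1 fell from early to late 2-cell (57.7% and 13.7% of all genes), but 3 and 4 with median-ratio scaling. From early 32-cell to blastocyst 0 rose and 7 fell (12.6% and 29.1% of all genes), and 2 fell with median-ratio or quantile scaling. Pomp, which matures the core particle, had 43.8 ± 2.92 CPM at early 2-cell, 481 ± 15.3 at early 8-cell and 263 ± 27.3 in blastocysts (mean ± SD). Adrm1, the ubiquitin receptor of the base, had 3.98 ± 0.869 and 277 ± 47.7 CPM at early 2-cell and late 8-cell. Akirin2, which guides proteasomes into the nucleus, had 314 ± 27.6 CPM at early 2-cell and 7.31 ± 2.44 in blastocysts. Of 9 regulators of transcription, 0 rose and 8 fell from late 2-cell to early 8-cell (24.5% and 47.9% of all genes); with median-ratio scaling it was 1 and 8, with quantile scaling 0 and 6, and with the length trend removed 1 and 5. Nfe2l1, an activator of proteasome genes, had 72.7 ± 8.11 CPM at very late 2-cell and 17.8 ± 7.04 at early 8-cell, and Nfyb 287 ± 11.48 at early 4-cell and 17.1 ± 3.83 in blastocysts. Ubb, a ubiquitin gene, had 10718 ± 3755 CPM in blastocysts. Of 9 shuttle and unfolding factors, which deliver substrates, all 9 were higher without pyruvate in blastocysts, as were 80.8% of all genes (0.88 to 2.57, where the median of all genes was 1.15), but 4 were higher and 1 lower with median-ratio scaling.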

How the data were processed

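Values were CPM (read counts scaled to a common library total) per gene, deposited by the authors as 1 table. Per the submitters' processing notes the tools include STAR 2.6.1d and the build mm10; the counter and annotation are not given in the sources used here. Low values were mostly, not always, whole multiples of 1 read (70.4 to 79.3% of values up to 20 reads within 0.1 of a whole number), as fractional counts would be, so no count test was run. Of 91 columns, 85 matched a sample by name and 6 were not used. Rows with a number for a name (26, holding 0.046 to 0.194% of values) were left out, and 1 missing value (Tdh) was set to 0. Modal step sizes gave a depth of 10.2 to 42.6 M reads, at which counting error alone is 31.3% (shallowest) or 15.3% (deepest) at 1 CPM; replicates differed by 2.70 to 102 times counting error, in squared differences over 138 pairs.

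Changes were tested with limma 3.58.1 (R 4.3.3, empirical Bayes with trend) on log2(CPM + 1), so changes of low genes are understated, over genes that passed 1 CPM in 3 or more of the fitted libraries, with Benjamini-Hochberg adjustment over all genes tested and a threshold of 0.05. Stage comparisons shared 1 fit of the 12 standard groups, and the 2-cell media, the morulae and the blastocysts had a fit each. A log2 change is the first group minus the second. On simulated data for blastocysts against early 32-cell embryos (19523 genes), 73 of 100 genes changed by 1 on the log2 scale and 100 of 100 changed by 2 were recovered, with 15 false calls. Of 100 genes changed by 1, 69 were recovered at 52 h without pyruvate and 82 in pyruvate-free blastocysts. The simulation used normal noise with 1 spread per gene, as the fit assumes, and changed no genes of low level. It moved as many genes up as down, so it does not cover errors from scaling.

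The genes, lists and comparisons were chosen with earlier results of these data known. Genes given with full values were, per comparison, up to 3 called rises and 3 called falls with the most change among members whose higher group averaged 10 CPM or more, and the catalytic, alternative and activator genes plus Psmd4, Psmd14, Psma8 and Psmg1; other members were named after their values were seen. Other settings tried were median-ratio and quantile scaling, no filter, a pseudocount of 0.1, the spread from the groups compared alone, the replicate number as a block, leaving out each library, and leaving out standard morula libraries 1 and 2. Removing a trend with transcript length was added after seeing the data, as was the use of principal transcripts (GENCODE vM21) for levels per kilobase in place of all exons. Smart-seq2 does not mark strand, so reads of Psma4, Psma5, Psmb5, Psmb7, Psmb8, Psmb9, Psmc3, Psmd1, Psmd3, Psmd9, Psmd13, Psme1, Psme2b and Psmg3 cannot be told apart from those of genes that overlap them. Python 3.11.15 with pandas 2.3.3 was used.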

Additional observations from a re-analysis of the deposited data

Results flagged for a closer look

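In groups of 4 to 6 libraries, a library was singled out where its gap to the nearest other was large against the whole range of the group (Dixon's 95% limit). Of 576 gene and group pairs or sums tested, 31 (5.38%) met this, and chance gives about 1 in 20. Among the Blastocyst libraries it was Psma2 at 458 CPM in library 2, Psmb4 at 295 CPM in library 4 and Psme2b at 12.7 CPM in library 3. In the Early 16-cell group there was Psma4 at 380.5 CPM in library 1 and Psme4 at 16.2 CPM in library 3. For Early 32-cell libraries this gave the regulatory sum at 10151 CPM in library 1. Among the Early 4-cell libraries it was Psma4 at 192 CPM in library 2, Psmb10 at 51.6 CPM in library 2, Psmd13 at 98.1 CPM in library 3 and Psmf1 at 26.1 CPM in library 3. In the Late 4-cell group there was Psmb10 at 40.6 CPM in library 2 and Psme1 at 31.2 CPM in library 4. For Mid 2-cell libraries this gave the core sum at 659.5 CPM in library 3, Psmd10 at 24.2 CPM in library 3 and Psmf1 at 40.8 CPM in library 3. Among the Morula libraries it was the core to regulatory ratio of sums at 2.700 in library 1, Psma7 at 9269.8 CPM in library 1, Psmb5 at 205 CPM in library 2, Psmb6 at 1605 CPM in library 2, Psmd4 at 315 CPM in library 1 and Psmg1 at 13.6 CPM in library 1. In the No lactate blastocyst group there was Psmb10 at 1.55 CPM in library 4 and Psme3 at 12.4 CPM in library 4. For No lactate morula libraries this gave Psmd5 at 119.6 CPM in library 4. Among the No pyruvate 2-cell very late libraries it was Psmc5 at 39.8 CPM in library 4. In the No pyruvate blastocyst group there was Psmb2 at 673 CPM in library 4. For No pyruvate mid 2-cell libraries this gave Psmd5 at 48.3 CPM in library 2. Among the No pyruvate morula libraries it was Psma1 at 449 CPM in library 1 and Psma2 at 288 CPM in library 1. In the No pyruvate morula with KY-PYR-9 group there was Psma6 at 862 CPM in library 4 and Psmb6 at 550.2 CPM in library 4.

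The effect of a medium differed between blastocysts and morulae, by limma's test of that difference, for 9 of the genes named. For pyruvate the difference (blastocyst minus morula, log2) was 1.89 for Psme4, 1.56 for Psme3, 1.39 for Psmb10, -1.38 for Psmb5, -0.83 for Psma5 and -0.82 for Psmb3. For lactate it was 1.69 for Psmb4, 1.08 for Psma4 and 1.05 for Psma6. The call for Psme3 was lost with median-ratio and quantile scaling (limma adjusted p = 0.101 and 0.125), and those for Psmb10 and Psmb3 with quantile scaling (limma adjusted p = 0.0512 and 0.123). Psmb3 also lost it without Blastocyst library 1 or 2 (limma adjusted p = 0.0508 and 0.0538). How many genes differed for pyruvate changed with the scaling, as given with the counts above.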

How the results depend on the processing

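Of 85 pairs of a named gene and a comparison, 75 kept direction and call under every alternative with all libraries, and 80 without each library in turn. Counts of proteasome genes called moved as follows, and where scaling turned the larger direction the cause was not tested. Median-ratio scaling, quantile scaling and removal of the length trend called 37, 40 and 36 for mid against early 2-cell, 38, 35 and 38 for blastocyst against early 8-cell, and 30, 8 and 17 for the difference of the pyruvate effects. Median-ratio scaling and length removal called 8 and 11 for pyruvate-free morulae, 31 and 29 for the inhibitor, and 37 and 29 for pyruvate-free blastocysts. Quantile scaling called 32 at 42 h, median-ratio scaling 11 for lactate-free blastocysts, and length removal 12 for the difference of the lactate effects. With only the groups compared, 9 were called in pyruvate-free morulae and 10 in lactate-free blastocysts. Without standard morula libraries 1 and 2, 16 were called in lactate-free morulae, 29 for the difference of the pyruvate effects and 20 for that of the lactate effects. With the length trend removed Psmd5 changed by -0.0794 at 55 h, and with quantile scaling Psmb2 changed by 0.0861 in pyruvate-free blastocysts. Leaving out 1 library gave 30 to 32 for mid 2-cell against early 2-cell, 38 to 40 for late 2-cell against early 2-cell, 38 to 40 for early 8-cell against late 2-cell, 28 to 32 for blastocyst against early 8-cell, 28 to 32 for blastocyst against early 32-cell, 30 to 32 for no pyruvate against standard 2-cell at 42 h, 33 to 35 for no pyruvate against standard 2-cell at 48 h, 42 to 44 for no pyruvate against standard 2-cell at 52 h, 33 to 38 for no pyruvate 2-cell against standard early 4-cell at 55 h, 11 to 19 for no pyruvate against standard morula, 2 to 13 for no lactate against standard morula, 32 to 36 for no pyruvate with inhibitor against no pyruvate morula, 30 to 36 for no pyruvate against standard blastocyst, 10 to 20 for no lactate against standard blastocyst, 14 to 25 for pyruvate effect in blastocysts minus in morulae and 5 to 14 for lactate effect in blastocysts minus in morulae. Same-numbered libraries did not deviate together (r of -0.26 to 0.21 over 52 pairs, and in 0 of 14 comparisons was every pair over 0.1), so the replicate number was taken as no pairing; the fit with the replicate block called 31 for mid 2-cell against early 2-cell, 40 for late 2-cell against early 2-cell, 40 for early 8-cell against late 2-cell, 30 for blastocyst against early 8-cell, 30 for blastocyst against early 32-cell, 31 for no pyruvate against standard 2-cell at 42 h, 35 for no pyruvate against standard 2-cell at 48 h, 44 for no pyruvate against standard 2-cell at 52 h, 40 for no pyruvate 2-cell against standard early 4-cell at 55 h, 16 for no pyruvate against standard morula, 3 for no lactate against standard morula, 34 for no pyruvate with inhibitor against no pyruvate morula, 33 for no pyruvate against standard blastocyst, 14 for no lactate against standard blastocyst, 15 for pyruvate effect in blastocysts minus in morulae and 5 for lactate effect in blastocysts minus in morulae. These replicate numbers come from the sample titles. In some groups, such as late 2-cell and standard morula, the column names carry other numbers. Of the 52 pairs 7 were over 0.1, with 3 of the 5 for pyruvate-free against standard morulae. No r of differently numbered libraries is given for comparison. So neither these r values nor the replicate block can show whether libraries were paired. Depth limits genes near 1 CPM, such as the alternative beta subunits.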
